A study of Homo sapiens with 9 samples.

Results

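The EGFR (ERBB) receptor family and its ligands were followed in HCT116 colorectal carcinoma cells carrying a catalytic mutation of the ubiquitin ligase HUWE1. The members were the genes EGFR, ERBB2, ERBB3, AREG, EREG, TGFA and HBEGF, taken by gene symbol from a table of 11350 genes. All 7 of these symbols had a row, 3 of them receptors and 4 of them ligands. Polyadenylated RNA was sequenced from 3 lines with 3 libraries each. Parental HCT116 cells were neither edited nor selected. In HUWE1-WT and HUWE1-CS cells the catalytic cysteine of the endogenous HECT domain was rewritten by CRISPR with a repair template that added a P2A-linked blasticidin resistance gene. The template restored cysteine in HUWE1-WT cells and introduced serine in HUWE1-CS cells, and single cell clones were grown after puromycin and blasticidin selection. How many clones stand behind the 3 libraries of an edited line is not given in the sources used here, so a difference between lines and a difference between clones cannot be told apart. No line was treated further. Parental against HUWE1-WT therefore addresses the effect of editing and selection, and HUWE1-CS against HUWE1-WT the loss of the catalytic cysteine. The second contrast also carries any difference between clones and a lower level of HUWE1 mRNA. In HUWE1-CS against parental cells that loss cannot be told apart from editing, the resistance gene, selection and cloning.

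ERBB receptors are tyrosine kinases of the plasma membrane. EGFR binds its ligands directly, ERBB2 has no known ligand and serves as a dimerization partner, and ERBB3 has a weak kinase and binds neuregulins. AREG, EREG, TGFA and HBEGF are made as membrane-anchored precursors, which metalloproteases such as ADAM17 cut to release the active growth factor. Receptor dimers signal through adaptors to RAS and ERK and through PI3K to AKT. Amphiregulin (AREG) and epiregulin (EREG) are abundant in many colorectal carcinomas.

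The libraries held 1610984 to 2060349 counted reads each, so that 3 reads amounted to 1.45 to 1.86 CPM, reads scaled to the library total. CPM values here are scaled by TMM, a normalization on the bulk of the genes. HUWE1 mRNA averaged 543 ± 19.8 CPM (SD, n = 3) in parental cells, 469 ± 25.8 CPM (n = 3) in HUWE1-WT cells and 336 ± 11.7 CPM (n = 3) in HUWE1-CS cells. This level does not check the labels, since the substitution leaves the transcript in place. All 6 epithelial markers were measured, with a summed level of 4147 to 4573 CPM in the 6 control libraries and 3694 to 4071 CPM in the HUWE1-CS libraries. Of 5 intestinal markers only CDX2 was measured, at 15.5 to 23.6 CPM in controls and 26.7 to 28.9 CPM in HUWE1-CS cells. The fibroblast marker COL1A1 stood at 18.0 to 25.6 CPM in controls and 8.71 to 14.8 CPM in HUWE1-CS cells, and the haematopoietic marker CD68 at 9.64 to 14.5 and 6.39 to 10.2 CPM. The other markers of both lists and all 3 endothelial markers were not analysed here. The part of these marker differences in the results was not tested. In bulk RNA, fewer cells of a type and less RNA per cell cannot be told apart.

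By the rows as deposited, EREG was the most abundant member per transcript length. The level of AREG is uncertain, since its reads can be split with a near-identical copy, and so is its place in this order. RPKM values, the CPM per kilobase of each gene's canonical transcript, set levels of different genes side by side. Which transcripts these cells use was not examined, so the order rests on the canonical lengths. In parental cells EREG averaged 164 ± 8.28 RPKM (SD, n = 3), AREG 95.9 ± 8.81, ERBB2 21.6 ± 0.825, TGFA 17.0 ± 2.23, ERBB3 6.54 ± 0.414, EGFR 4.57 ± 0.107 and HBEGF 3.90 ± 0.822 (n = 3 each). Neighbours in this order did not overlap in the parental libraries, except EGFR and HBEGF. In HUWE1-WT cells the order was the same, and the ranges of ERBB2 and TGFA overlapped as well. In HUWE1-CS cells EREG averaged 134 ± 16.0 RPKM and AREG 126 ± 15.7 RPKM (SD, n = 3 each), and their ranges of 117 to 149 and 109 to 139 RPKM overlapped. TGFA at 24.9 ± 1.27 RPKM stood above ERBB2 at 23.7 ± 1.70 RPKM there (n = 3 each), also with overlapping ranges. ERBB4 and the ligands EGF, BTC, EPGN and NRG1 to NRG4 were not analysed here.

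In HUWE1-CS cells TGFA, AREG and ERBB3 mRNA was higher and EREG mRNA lower than in parental cells. TGFA rose 1.47-fold, ERBB3 1.41-fold and AREG 1.32-fold, while EREG fell to 0.813 of the parental level. EGFR, ERBB2 and HBEGF did not pass the test. A gene was called at a Benjamini-Hochberg adjusted p and a raw p of at most 0.01 in edgeR's quasi-likelihood test over all genes. By this rule 4 of 7 members were called, against 17.0% of all genes. Of these, 3 members were higher, against 8.46% of all genes called higher, and 1 was lower, against 8.58%. The median log2 fold change of the 7 members was 0.14, and that of all genes -0.01. Over all called genes of this comparison the median absolute log2 fold change was 0.55.

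**Figure D1:**
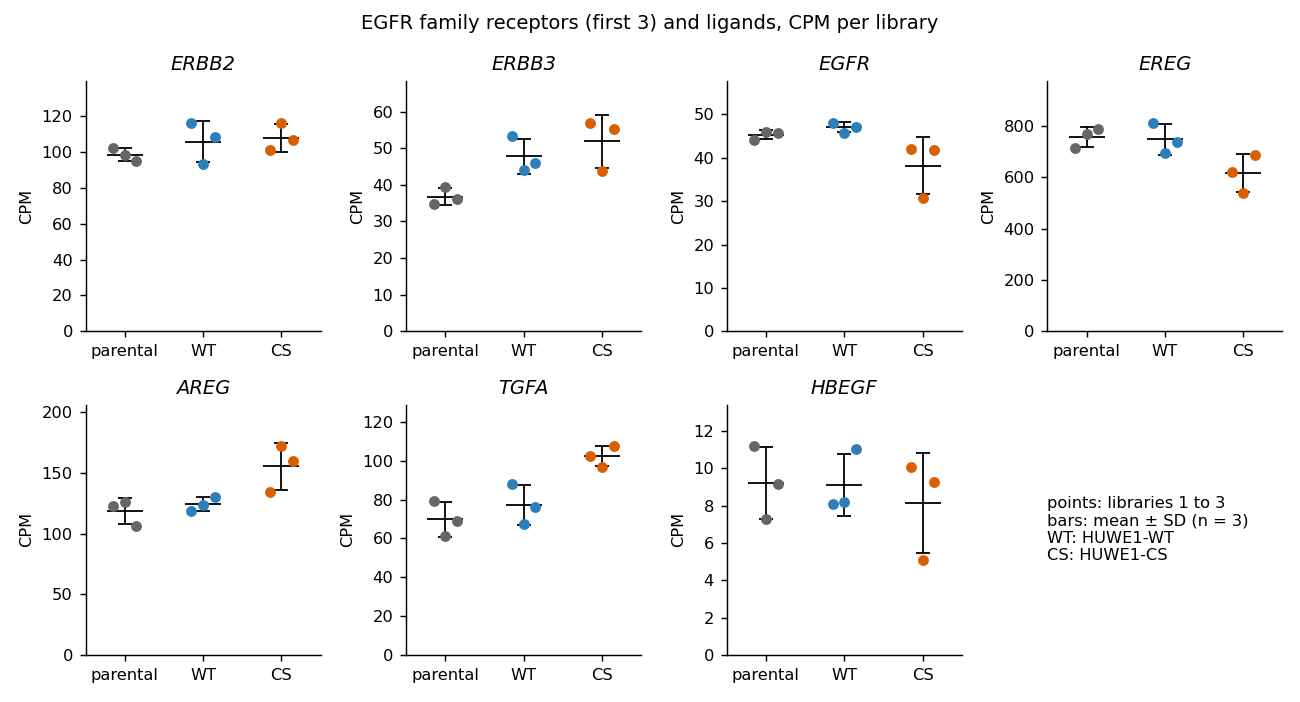
CPM of each member in each library, with 3 points per line (WT, HUWE1-WT; CS, HUWE1-CS), a horizontal mark at the mean and whiskers of 1 SD; each axis starts at 0. The 3 HUWE1-CS points of TGFA (97.0 to 107 CPM) and AREG (134 to 172 CPM) lie above all 6 control points, and those of EREG (539 to 687 CPM) and EGFR (30.6 to 42.1 CPM) lie below them.

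Against HUWE1-WT cells, which went through the same editing and selection, TGFA and AREG were again higher in HUWE1-CS cells and EREG again lower. TGFA rose 1.33-fold and AREG 1.25-fold, and EREG fell to 0.824 of the HUWE1-WT level. ERBB3 did not pass the test in this comparison. Thus 3 of 7 members were called, against 15.5% of all genes, 2 of them higher (7.42% of all genes) and 1 lower (8.08%). The median log2 fold change of the members was 0.03, and that of all genes 0.00. Both comparisons share the HUWE1-CS libraries. The HUWE1-CS libraries lay beyond all 6 controls in 4 of 7 members, above in 2 and below in 2, as they did in 26.3% of all genes.

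Between HUWE1-WT and parental cells no member was called (0 of 7 with edgeR, and 0 with DESeq2 and with limma-voom), against 0.0617% of all genes. With an unadjusted p under 0.05 there was 1 of 7 members, ERBB3, against 5.54% of all genes. The largest difference was that of ERBB3, with a log2 fold change of 0.38 (95% interval 0.09 to 0.67, not adjusted for the number of genes; adjusted p = 0.743, edgeR). The other 6 members differed by log2 fold changes between -0.02 and 0.15.

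**Figure D2:**
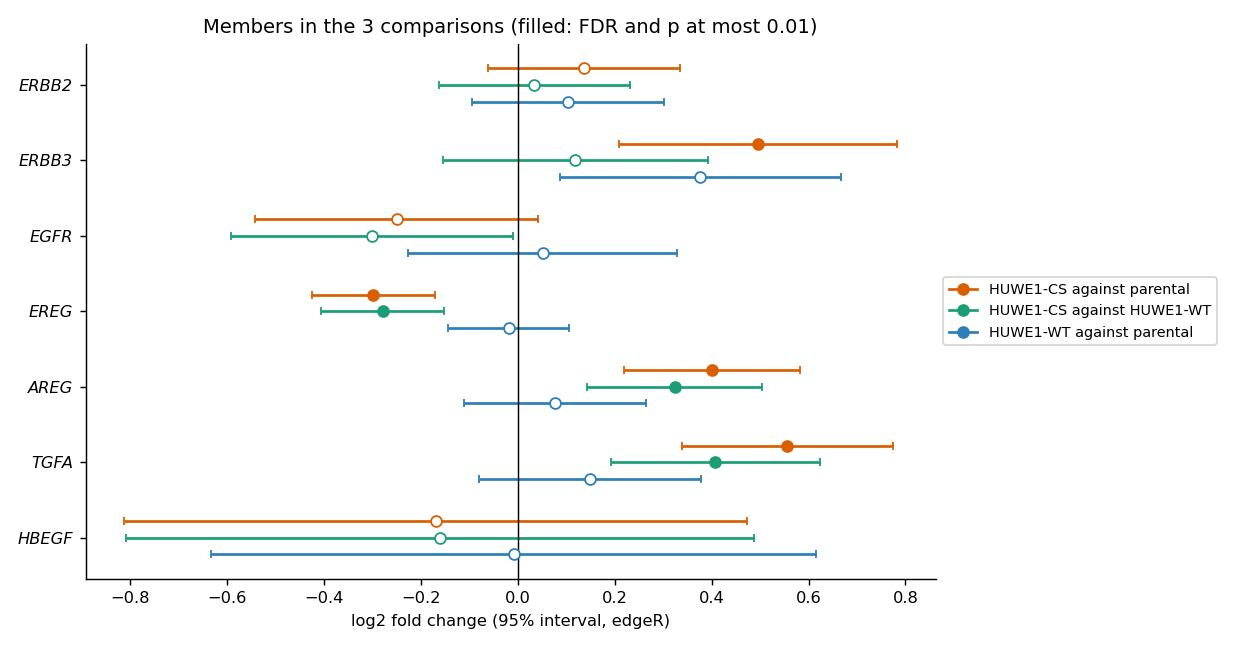
Log2 fold change of each member (horizontal axis) in HUWE1-CS against parental, HUWE1-CS against HUWE1-WT and HUWE1-WT against parental, with 95% intervals from the edgeR fit; filled points were called. TGFA and AREG are filled on the right and EREG on the left in both comparisons of HUWE1-CS cells, while ERBB3 is filled in the first only.

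Among the receptors, ERBB3 (Entrez 2065; GRCh37 chromosome 12, 56470583 to 56497289, plus strand) was measured at 34.8, 39.3 and 36.1 CPM in parental cells. It reached 53.3, 44.2 and 45.9 CPM in HUWE1-WT cells and 57.0, 43.7 and 55.2 CPM in HUWE1-CS cells. The parental libraries were thus the lowest, and both edited lines overlapped. The log2 fold change of HUWE1-CS against parental cells was 0.50 (standard error 0.145, adjusted p = 0.0059, edgeR). Against HUWE1-WT cells it was 0.12 (95% interval -0.16 to 0.39, adjusted p = 0.582, edgeR). The call against parental cells was lost with DESeq2 (adjusted p = 0.0456) and on leaving out parental library 1 or 3 or HUWE1-CS library 1 or 3, with edgeR adjusted p-values of 0.028 to 0.0484. Only 56 to 96 reads per library stood behind these values.

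EGFR (Entrez 1956; GRCh37 chromosome 7, 55086710 to 55279321, plus strand) had 44.1, 46.0 and 45.8 CPM in parental cells and 48.1, 45.8 and 47.1 CPM in HUWE1-WT cells. In HUWE1-CS cells it had 42.1, 30.6 and 41.8 CPM. All 3 HUWE1-CS libraries were below the 6 controls, and library 2 stood well below the other two. The log2 fold change was -0.25 against parental (95% interval -0.54 to 0.04, adjusted p = 0.216, edgeR) and -0.30 against HUWE1-WT cells (-0.59 to -0.01, adjusted p = 0.129), so the difference did not pass the test. Without HUWE1-CS library 2 it was -0.10 and -0.16. In the fit that removed the trend of fold change with transcript length, EGFR, whose transcript of 9905 bases is the longest of the members, stood at -0.07 and -0.18.

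ERBB2 (Entrez 2064; GRCh37 chromosome 17, 37844167 to 37886679, plus strand) lay between 93.2 and 116 CPM in the 9 libraries, and the 3 lines overlapped. Its log2 fold change was 0.14 in HUWE1-CS against parental cells (95% interval -0.06 to 0.33, adjusted p = 0.333, edgeR) and 0.03 against HUWE1-WT cells (-0.16 to 0.23, adjusted p = 0.852).

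The ligands AREG and EREG are neighbours on chromosome 4 in the same orientation, and they moved in opposite directions in HUWE1-CS cells. EREG (Entrez 2069) covers 75230862 to 75254466 and AREG (Entrez 374) 75310853 to 75320722 on the plus strand of GRCh37, with 56.4 kb between them. The stretches upstream of both annotated starts are shown to compare the core promoters of these neighbours. Each runs 5′ to 3′ over 150 bases and ends at the base before the start, as given by RefSeq (GRCh38.p14 table) and matched exactly to GRCh37. Capitals mark a cyclic AMP response element (CRE, TGACGTCA) or a TATA box (TATAAA). The AREG stretch lies at chr4:75310703-75310852 and the EREG stretch at chr4:75230712-75230861.
AREG: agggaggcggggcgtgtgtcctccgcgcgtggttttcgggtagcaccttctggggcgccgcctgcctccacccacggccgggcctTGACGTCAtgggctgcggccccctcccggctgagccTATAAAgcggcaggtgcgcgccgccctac
EREG: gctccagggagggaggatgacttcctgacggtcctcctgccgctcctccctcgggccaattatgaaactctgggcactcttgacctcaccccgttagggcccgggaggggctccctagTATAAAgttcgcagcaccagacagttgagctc

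AREG and EREG both carry a TATA box, 29 and 32 bases before the start. AREG alone of the pair carries the CRE, 65 bases before the start. Neither motif was found before the 2 RefSeq starts of TGFA. Before the second EGFR start the TATA box letters occurred 2 times, at 146 and 36 bases. Both strands were searched over the 250 bases before each start, and 10.7% of 35116 RefSeq promoters hold the TATA box letters and 1.65% the CRE letters. The GC box (GGGCGG, in 42.6% of promoters) occurred 3 times before the first TGFA start and 0 times before the second, 5 times before HBEGF, 2 times before the first EGFR start and once before AREG. The ETS letters CCGGAAGT (3.42%) occurred 2 times before ERBB2, within the last 27 bases, and before no other member searched. AP-1 letters TGANTCA (6.57%) occurred before ERBB2 and before the second EGFR start, and the E-box CACGTG (6.34%) before none. ERBB3 was not searched. A match is a description of the letters and not evidence of a site in use.

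EREG, a low-affinity ligand of EGFR and ERBB4, was measured at 714, 770 and 787 CPM in parental cells and 813, 694 and 737 CPM in HUWE1-WT cells. It reached 622, 539 and 687 CPM in HUWE1-CS cells. All 3 HUWE1-CS libraries were below the 6 controls, although library 3 at 687 CPM came close to HUWE1-WT library 2 at 694 CPM. Relative to parental cells this was a log2 difference of -0.30 with a standard error of 0.0641 (adjusted p = 1.34e-04, edgeR), and relative to HUWE1-WT cells one of -0.28 with a standard error of 0.0642 (adjusted p = 4.16e-04, edgeR). Both calls depended on HUWE1-CS library 2, without which the log2 fold changes were -0.20 (adjusted p = 0.0155) and -0.18 (adjusted p = 0.0318). Without HUWE1-WT library 1 the second comparison gave -0.22 (adjusted p = 0.0115).

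AREG, a ligand of EGFR, had 123, 126 and 106 CPM in parental cells and 119, 124 and 130 CPM in HUWE1-WT cells. In HUWE1-CS cells it had 134, 172 and 160 CPM. The HUWE1-CS libraries were all above the controls, and library 1 exceeded the highest control only slightly. Relative to parental cells this was a log2 difference of 0.40 with a standard error of 0.0913 (adjusted p = 3.33e-04, edgeR), and relative to HUWE1-WT cells one of 0.32 with a standard error of 0.0910 (adjusted p = 0.00445, edgeR). The first call was lost without parental library 3 (0.32, adjusted p = 0.0169). The second was lost with DESeq2 (adjusted p = 0.0396), with the length trend removed (0.23, adjusted p = 0.0363), and on leaving out HUWE1-WT library 1 or 2 or HUWE1-CS library 2 or 3 (0.25 to 0.33, adjusted p = 0.0126 to 0.0586, edgeR). AREG has the shortest transcript of the members, 1234 bases, and with the length trend removed its difference from parental cells was 0.28 (adjusted p = 0.00908).

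AREG counts carry a further uncertainty. GRCh37 holds a near-identical copy, annotated AREGB, at 75480629 to 75490486 of chromosome 4. Of the 50-base windows of the AREG transcript, 95.8% also occur in that of AREGB, and the 250 bases before the AREG start occur at both places. Reads of AREG can therefore have been split or dropped, and its level per length is uncertain. Among 8177 other genes with a mean of at least 20 CPM, the row whose log2 CPM followed AREG most closely over the 9 libraries was one without a symbol, Entrez 727738 (Pearson r = 0.99). The sources used here pair it with no name. It had 102, 101 and 83.4 CPM in parental, 97.3, 101 and 105 CPM in HUWE1-WT and 105, 131 and 124 CPM in HUWE1-CS cells, the same library order within HUWE1-CS cells as AREG. Its log2 fold change was 0.34 against parental (adjusted p = 0.0061, edgeR) and 0.25 against HUWE1-WT cells (adjusted p = 0.0539).

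TGFA (Entrez 7039; GRCh37 chromosome 2, 70674416 to 70781325, minus strand), a high-affinity ligand of EGFR, showed the largest change of the members. It was measured at 79.5, 61.2 and 68.9 CPM in parental cells and 88.1, 67.6 and 76.2 CPM in HUWE1-WT cells. In HUWE1-CS cells it reached 103, 97.0 and 107 CPM. No control library reached the lowest of these. Relative to parental cells this was a log2 difference of 0.56 with a standard error of 0.110 (adjusted p = 3.32e-05, edgeR), and relative to HUWE1-WT cells one of 0.41 with a standard error of 0.108 (adjusted p = 0.00263, edgeR). Against parental cells the call held under all 21 alternatives run, with log2 fold changes of 0.47 to 0.65. Against HUWE1-WT cells it was lost with DESeq2 (adjusted p = 0.0301) and on leaving out HUWE1-CS library 1 or 3 or HUWE1-WT library 2 or 3 (0.32 to 0.40, adjusted p = 0.0110 to 0.0398, edgeR).

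HBEGF (Entrez 1839; GRCh37 chromosome 5, 139712428 to 139726188, minus strand), a heparin-binding ligand of EGFR and ERBB4, was close to the limit of the data, with 9 to 19 reads per library. It lay between 5.10 and 11.2 CPM, and the lines overlapped. The log2 fold change was -0.17 in HUWE1-CS against parental cells (95% interval -0.81 to 0.47, adjusted p = 0.754, edgeR) and -0.16 against HUWE1-WT cells (-0.81 to 0.49, adjusted p = 0.775).

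**Figure D3:**
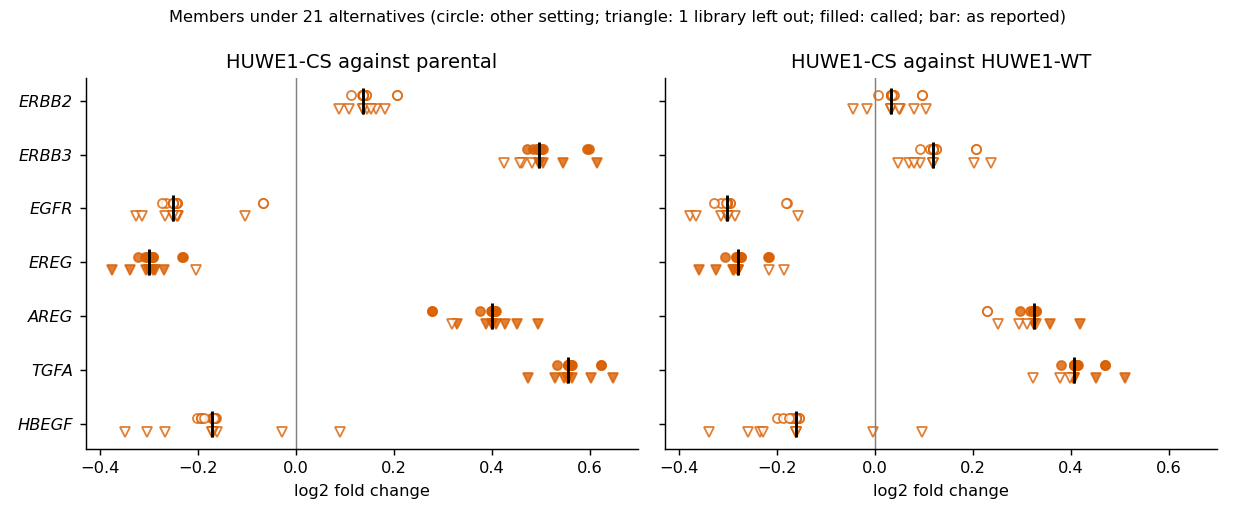
Log2 fold change of each member (horizontal axis) in HUWE1-CS against parental (left) and against HUWE1-WT cells (right); the bar is the reported value, circles are other settings, triangles leave out 1 library, and filled symbols were called. TGFA stays filled throughout on the left, at 0.47 to 0.65, and EREG lies below 0 in both panels, from -0.38 to -0.18.

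Scaled by transcript length, the mix of the 4 ligand transcripts differed in HUWE1-CS cells while their sum did not stand apart. The summed ligand level was 270 to 297 RPKM in the 6 control libraries and 273 to 309 RPKM in HUWE1-CS cells. EREG made up 55.4% to 61.6% of this sum in the controls, and 49.4%, 41.5% and 48.2% in the HUWE1-CS libraries. AREG made up 31.0% to 37.1% in the controls and 39.9%, 49.4% and 42.1% in HUWE1-CS cells. TGFA made up 5.17% to 7.20% and 8.36% to 9.15%. The shares of EREG, AREG and TGFA did not overlap between HUWE1-CS and control libraries, and the share of HBEGF did. By CPM, the HUWE1-CS libraries lay beyond all 6 controls in 26.3% of all genes. The ligand shares of a library add up to the whole, so a lower EREG share means a higher share of the rest. They are therefore not separate results. These shares rest on the AREG row as deposited.

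**Figure D4:**
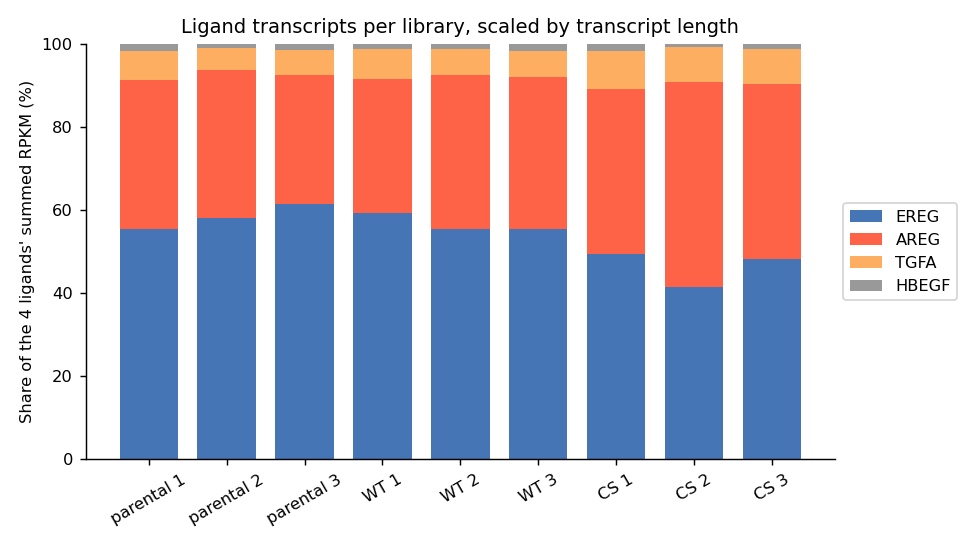
Share of each ligand in the summed RPKM of the 4 ligands (vertical axis, percent), 1 bar per library. The EREG segment fills 55.4% to 61.6% of the control bars and 41.5% to 49.4% of the HUWE1-CS bars, with larger AREG and TGFA segments in HUWE1-CS cells.

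Around the receptors, a list of 83 pathway genes apart from the members was followed from ligand release to ERK target transcripts. In HUWE1-CS against parental cells 19 were called (22.9%, against 17.0% of all genes), 10 higher and 9 lower, with a median log2 fold change of 0.03. Against HUWE1-WT cells 16 were called (19.3%), 9 higher and 7 lower, with a median of 0.03. In HUWE1-WT against parental cells 0 of 83 were called with edgeR and 0 with DESeq2, and 5 had an unadjusted p under 0.05. The shares over the whole list were near those of all genes. The counts of the single lists stand beside 8.46% of all genes called higher and 8.58% called lower against parental cells, and 7.42% and 8.08% against HUWE1-WT cells.

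Of 8 genes of ligand release, 2 were called lower and 0 higher against parental cells, with a median log2 fold change of 0.08. ADAM15 was higher by 0.24 on the log2 scale and narrowly missed the call (adjusted p = 0.0116, edgeR). In the robust fit, with a replicate block, or at an adjusted p of at most 0.05, 3 genes of this list were called. ADAM9, a membrane metalloprotease, fell from 313 ± 5.85 to 178 ± 2.38 CPM (SD, n = 3; log2 fold change -0.81, adjusted p = 6.80e-17, edgeR). ADAM10, also a sheddase, fell by 0.39 on the log2 scale (adjusted p = 4.14e-04, edgeR). Against HUWE1-WT cells ADAM9 was called again (-0.86) and ADAM10 was not (-0.23, adjusted p = 0.064). ADAM17, the main sheddase of AREG, TGFA and HBEGF, was at 59.8 ± 2.60 CPM in parental and 67.8 ± 7.24 CPM in HUWE1-CS cells (SD, n = 3; 0.18, 95% interval -0.06 to 0.43, adjusted p = 0.289).

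Of 15 inhibitors and ubiquitin ligases of the receptors, 2 were lower and 0 higher against both controls. ERRFI1 (MIG6), which binds the EGFR kinase domain and blocks its activity, was at 601 ± 19.0 CPM in parental, 587 ± 26.8 in HUWE1-WT and 160 ± 3.66 CPM in HUWE1-CS cells (SD, n = 3). This was the largest change of all pathway genes called, with a log2 fold change of -1.91 (adjusted p = 9.57e-43, edgeR) against parental cells. SOCS5, an adaptor for receptor ubiquitylation, fell by 0.62 on the log2 scale (adjusted p = 0.00167). This pair was called with edgeR, and DESeq2 called 1 of the 15; without HUWE1-CS library 2 or parental library 3 edgeR called 1 against parental cells, and without HUWE1-WT library 1 or 3 or HUWE1-CS library 2 it called 1 against HUWE1-WT cells. LRIG1, a membrane inhibitor of the family, was at 12.8 ± 0.709 CPM in parental and 13.2 ± 1.18 CPM in HUWE1-CS cells (SD, n = 3; adjusted p = 0.938, edgeR). CBL, the ubiquitin ligase of activated EGFR, was at 80.7 ± 7.20 and 73.0 ± 4.59 CPM (SD, n = 3; adjusted p = 0.349, edgeR).

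Of 15 genes of receptor endocytosis and sorting, 2 were called higher and 0 lower against both controls. TSG101, a subunit of the ESCRT machinery, rose by 0.55 and RAB11A, a GTPase of recycling endosomes, by 0.27 on the log2 scale against parental cells (adjusted p = 3.58e-04 and 0.00676, edgeR). Against parental cells the count of called genes was 0 without parental library 3 and 5 with the length trend removed. It was 1 with DESeq2 or without parental library 1 or HUWE1-CS library 1 or 3. At an adjusted p of at most 0.05 it was 6, with EPS15 and RAB5A also higher and STAM and STAM2 lower (edgeR). Of 8 adaptors to RAS, 0 were called against parental cells with edgeR or with DESeq2, and 1 had an unadjusted p under 0.05. With the length trend removed, or without parental library 3 or HUWE1-CS library 3, edgeR called 1 against parental cells. GRB2, the adaptor that recruits SOS, differed by a log2 fold change of 0.09 (95% interval -0.06 to 0.25, adjusted p = 0.389, edgeR).

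Among 12 RAS, RAF, MEK and ERK genes, 2 were called lower and 0 higher against parental cells. With DESeq2, or without parental library 1 or HUWE1-CS library 2 or 3, 1 was called. At an adjusted p of at most 0.05 the count was 4, with ARAF also lower and KSR1 higher (edgeR). NRAS, a RAS GTPase, fell from 152 ± 11.1 to 107 ± 7.67 CPM (SD, n = 3; log2 fold change -0.52, adjusted p = 4.21e-06, edgeR). Against HUWE1-WT cells NRAS was the 1 gene of the list called, with a log2 fold change of -0.49.

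Of 10 PI3K and AKT genes, 2 were higher and 1 lower against parental cells. The regulatory subunits PIK3R1 and PIK3R2 rose by 0.92 and 0.47 on the log2 scale (adjusted p = 1.47e-04 and 1.85e-06, edgeR). Against HUWE1-WT cells both subunits were called again (0.90 and 0.39), and no other gene of the list was. PIK3CA, the catalytic subunit, was at 19.9 ± 4.83 and 21.7 ± 2.65 CPM in parental and HUWE1-CS cells (SD, n = 3; adjusted p = 0.664).

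Transcripts that respond to ERK changed in both directions. Of 15 measured, 6 were higher and 2 lower against parental cells, with a median log2 fold change of -0.01, and 5 were higher and 3 lower against HUWE1-WT cells. Of all genes, 17.0% and 15.5% were called in these comparisons. Without parental library 3 the first count was 5 in all. DUSP4 and DUSP6, phosphatases that act on ERK, rose by 1.20 and 0.77 on the log2 scale (adjusted p = 3.18e-17 and 5.38e-10, edgeR). DUSP5, a nuclear ERK phosphatase, fell by 0.79 (adjusted p = 5.68e-11). DUSP4 stood at 69.5 ± 5.95 CPM in parental, 73.4 ± 11.6 in HUWE1-WT and 160 ± 25.3 CPM in HUWE1-CS cells (SD, n = 3). SPRY4, ETV4, PHLDA1 and IER3 were the other higher genes, and CCND1 the other lower one.

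For comparison with receptors of other families, 20 further receptor tyrosine kinases were measured. Against parental cells 2 were higher and 4 lower, where 8.46% and 8.58% of all genes were. Against HUWE1-WT cells 1 was higher and 6 lower, where 7.42% and 8.08% of all genes were. AXL fell from 120 ± 3.57 to 57.5 ± 3.31 CPM and MET, the receptor of hepatocyte growth factor, from 387 ± 5.19 to 244 ± 18.4 CPM (SD, n = 3; log2 fold changes -1.06 and -0.67, adjusted p = 4.45e-14 and 1.23e-13, edgeR). DDR1, a collagen receptor, rose by 0.48 (adjusted p = 7.24e-08). Whether the 3 ERBB receptors differ from these 20 was not tested.

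**Figure D5:**
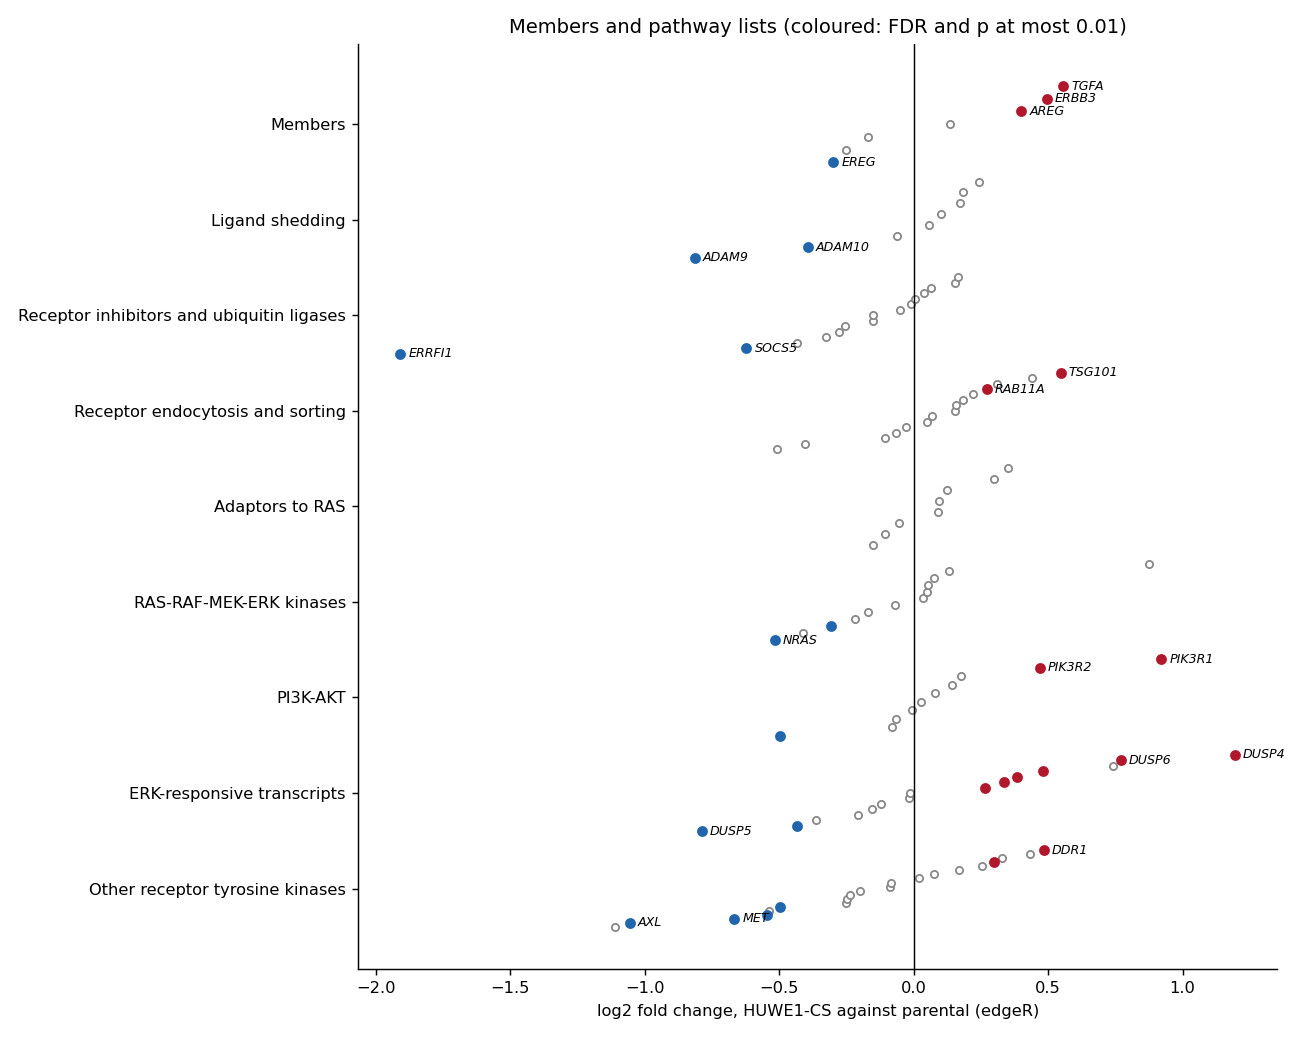
Log2 fold change of HUWE1-CS against parental cells (horizontal axis) for the members and for each list of pathway genes, 1 point per gene; red and blue points were called higher and lower, and open points were not called. ERRFI1 stands alone at -1.91, and the ERK-responsive transcripts hold called genes on both sides, from DUSP5 at -0.79 to DUSP4 at 1.20.

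Outside the pathway, the genes with the most similar profiles were sought for each called member over the 9 libraries, as a description. TASOR2 (r = 0.98) and PAPOLA (r = 0.98) followed EREG, HLTF (r = 0.95) and SLC4A3 (r = 0.95) followed TGFA, ACSF2 (r = 0.98) came second for AREG, and TANC1 (r = 0.95) followed ERBB3. PAPOLA, a poly(A) polymerase, had 413, 410 and 441 CPM in parental, 455, 406 and 412 CPM in HUWE1-WT and 360, 304 and 379 CPM in HUWE1-CS cells, with HUWE1-CS library 2 lowest as for EREG. HLTF, a DNA translocase, had 96.8, 92.6 and 92.5 CPM in parental, 119, 94.3 and 106 CPM in HUWE1-WT and 144, 125 and 153 CPM in HUWE1-CS cells. The points of these correlations share their libraries. TANC1 was not called in any comparison (edgeR).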

How the data were processed

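RNA from 9 libraries of 3 HCT116 lines was sequenced single-end after poly(A) selection. The authors trimmed reads, aligned them to hg19 and deposited raw counts per gene. The submitters' processing notes name bcl2fastq 2.20, STAR 2.5.4 and edgeR 3.26.8. The counting tool, its annotation and its use of strand are not given in the sources used here. Deposited tables of the authors' own comparisons, which hold fold changes and p-values, were not used. No value column was left unmapped to a sample (0).

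Counts were fitted over all 11350 genes and 9 libraries with edgeR 4.0.16 (R 4.3.3; legacy quasi-likelihood, TMM, line as the only term). Genes were called at an adjusted and raw p of at most 0.01. No low-count filter was applied, since every gene passed filterByExpr, and the lowest mean was 4.56 reads. All 7 members passed. Rows without a symbol (147, with 0.505% of counts) stayed in the fit by their identifier. The study calls replicates biological and, for its measurements in general, taken from distinct samples. Whether these libraries came from separate cultures is not stated, so p-values measure only the spread between these libraries, which may be technical. Pairs of replicates differed by more than sampling noise (chi-square per degree of freedom 1.16 to 1.65). RPKM used GENCODE transcript lengths on GRCh37, found for 11114 genes. On simulated data for HUWE1-CS against parental cells (11350 genes), 69.8% of genes from 30 CPM with a log2 change of 0.5 were called. With a change of 1 it was 98.3%. The 3 simulated datasets together gave 371 calls, far fewer than the 1934 of the data. The adjusted p depends on that number, so these percentages do not give the sensitivity in the data. Intervals cover 95% and come from the fit. Figures used matplotlib 3.10.9.

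The members and gene lists were chosen with earlier results of these data known. Named genes were all members, up to 3 called genes per list by p-value, the fixed genes LRIG1, ERRFI1, CBL, ADAM17, GRB2 and PIK3CA, and the 2 genes most correlated with each called member. Some genes that this rule takes are not reported here, though the counts over lists include them. SPRY4, ETV4, PHLDA1, IER3 and CCND1 were named after their values were seen, as were the row without a symbol's library values. The same holds for ADAM15, EPS15, RAB5A, STAM, STAM2, ARAF and KSR1. Alternatives were DESeq2 1.42.0, limma-voom (limma 3.58.1), other size factors, a minimum mean of 10 counts, only the lines compared, a robust fit, edgeR's newer estimator, a replicate block, removal of the transcript length trend, an adjusted p of 0.05, and each library left out.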

Additional observations from a re-analysis of the deposited data

How the results depend on the processing

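Members called in HUWE1-CS against parental cells numbered 4, and 2 to 4 on leaving out 1 library (2 without parental replicate 3); DESeq2 gave 3. Against HUWE1-WT cells the count of 3 became 1 with DESeq2 (EREG), 2 with the length trend removed, and 1 to 3 on leaving out 1 library. In HUWE1-WT against parental cells it was 0 under every alternative run (0 to 0). The direction of TGFA, AREG and EREG in both comparisons of HUWE1-CS cells, and of ERBB3 and EGFR, was the same under all 21 alternatives.

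Directions changed for differences near 0 that were never called. On leaving out 1 library, the log2 fold change of HBEGF in HUWE1-CS cells ran from -0.35 to 0.089 against parental and from -0.34 to 0.097 against HUWE1-WT cells, above 0 only without HUWE1-CS replicate 2. ERBB2 in HUWE1-CS against HUWE1-WT cells ran from -0.045 to 0.10, and was below 0 without HUWE1-WT replicate 2 or HUWE1-CS replicate 2. In HUWE1-WT against parental cells AREG ran from -0.0045 to 0.13, EREG from -0.084 to 0.034 and HBEGF from -0.17 to 0.13. The causes were not tested.

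The labels do not say whether the numbers of the replicates pair the samples. Same-numbered libraries of different lines deviated from their line means with correlations of -0.03 to 0.09 over 7051 genes. For differently numbered libraries of different lines the correlations were -0.11 to 0.04. Whether the numbers mark pairs was not tested. With a replicate block the members called numbered 4, 3 and 0 in the 3 comparisons, as without it, and HBEGF in HUWE1-WT against parental cells turned to 0.0018. Over all genes the replicate block gave 2021 calls against 1934 in HUWE1-CS against parental cells. DESeq2 gave 1088 there, and 998 against 1759 in HUWE1-CS against HUWE1-WT cells. Without 1 library, HUWE1-WT against parental gave 1 to 19 calls against 7; the robust fit gave 1, the length correction 1 and DESeq2 0. Of 357 counts over the pathway lists, 328 stayed within 1.5 times of the reported count. Many of these counts were small, and a count of 0 that stayed 0 is among the 328. This is therefore a weak measure of stability. Depth limits HBEGF most, at 9 to 19 reads per library.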
